A study of Mus musculus with 4 samples.

Results

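The flank of the mouse HoxA cluster that holds Skap2 and the noncoding gene Halr1 was examined for HOXA5 occupancy in the embryonic lung. All peaks with a summit in a 300 kb window of chromosome 6 (mm10) were taken from the peak list of each of the 2 HOXA5-FLAG immunoprecipitates. The window runs from 9.17 kb beyond the far end of Skap2 to 36.3 kb past the end of Halr1. This gave 5 of 4289 peaks in replicate 1 and 4 of 2832 in replicate 2, which formed 5 sites, 4 of them present in both lists. The members were chosen by the positions of their summits in these same lists, in a window known to hold peaks. Their number, strength and sharing are therefore given as a description with no test. All animals were mouse embryos at E15.5 carrying the Hoxa5FLAG/FLAG genotype, in which both copies of the endogenous Hoxa5 gene carry a FLAG epitope. Chromatin of whole lungs fixed in 1% formaldehyde was precipitated with a FLAG antibody. The 4 libraries of the series are 2 immunoprecipitates and 2 inputs, with no untagged control. The inputs were not analysed here, and background of the FLAG antibody at these sites was not tested. Library titles contain wt, while the genotype entry is the tagged allele. Peaks of replicate 2 are named after a replicate of another number. Titles and genotype were followed. The labels do not state whether the replicates were separate litters or pools, and whole lung does not tell which cells carry a peak.

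HOX proteins are homeodomain transcription factors whose genes lie in clusters, with the genes used most anteriorly at one end. The gene-poor DNA beyond that end of HoxA, up to and across Skap2, is known in mouse embryos and embryonic stem cells as a source of regulatory elements for the anterior HoxA genes. Halr1, listed by RefSeq also as Haunt, is a long noncoding RNA gene in that DNA. In mouse embryonic stem cells given retinoic acid its DNA promotes, and its transcript restrains, activation of HoxA genes. Skap2 encodes a cytoplasmic adaptor of Src-family kinases that acts in integrin signalling of immune cells. HOXA5 itself is required for normal formation of the mouse airways and lung.

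In the annotation of the same build, Skap2 (gene 54353) spans 51859165 to 52012549 and is read from its right end, on the minus strand. It covers 51.1% of the window. Halr1 (gene 102635415) spans 52102949 to 52113684 on the plus strand and covers 3.58%. The start of Skap2 and the start of Halr1 lie 90.4 kb apart. Exons and introns are not given in the table used.

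The sequences around the starts of both genes are shown because neither was covered by a peak in either list. They run from 250 bases before to 50 bases after the annotated start (RefSeq, GRCm38.p6), Skap2 at chr6:52012500-52012799 on the minus strand and Halr1 at chr6:52102699-52102998 on the plus strand. Capitals mark matches on either strand to TAAT, the core of many homeodomain sites, to TGATTNAT, a HOX and PBX motif, or to TGACAG, a MEIS motif.
Skap2: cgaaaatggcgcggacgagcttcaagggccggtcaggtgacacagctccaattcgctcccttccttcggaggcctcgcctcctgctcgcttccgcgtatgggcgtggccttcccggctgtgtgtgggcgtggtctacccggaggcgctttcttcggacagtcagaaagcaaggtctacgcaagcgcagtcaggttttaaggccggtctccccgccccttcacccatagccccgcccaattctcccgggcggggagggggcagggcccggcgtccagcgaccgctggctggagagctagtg
Halr1: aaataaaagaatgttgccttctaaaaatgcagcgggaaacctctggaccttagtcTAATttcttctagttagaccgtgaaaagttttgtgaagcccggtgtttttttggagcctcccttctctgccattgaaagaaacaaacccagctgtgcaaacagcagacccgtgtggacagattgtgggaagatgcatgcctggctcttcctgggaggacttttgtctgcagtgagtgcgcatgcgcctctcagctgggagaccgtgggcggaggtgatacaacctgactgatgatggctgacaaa
The Skap2 sequence held none of the 3 motifs. The Halr1 sequence held 1 TAAT, beginning 195 bases before the start, and neither of the others. Of all 32851 such windows in the RefSeq table, 58.0% held TAAT, 3.22% TGATTNAT and 19.2% TGACAG. GC content was 66.0% for Skap2 and 49.0% for Halr1, against a median of 52.7% over all windows. The nearest peak edge to the Skap2 start lay 18.3 kb away in replicate 1 and 18.4 kb in replicate 2, inside the gene. The nearest to the Halr1 start lay 16.2 kb before it in both lists. Sequence of the peaks themselves was not used here.

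The site nearest to Halr1 was the one site of the flank outside both Skap2 and Halr1. The window touches 3 annotated genes, and the position of the sites relative to the remaining gene is not reported here. The replicate 1 peak covered 52086100 to 52086783 with 14.8-fold enrichment and a −log10 q of 162. In replicate 2 the peak covered 52086052 to 52086770 with 5.40-fold enrichment and a −log10 q of 32.0. Fold and −log10 q are the authors' values, each for a peak in its own list. The background over which the peak caller took the fold is not stated. The summits, at 52086541 and 52086550, lay 9 bp apart. They were 16.4 kb before the start of Halr1, 74.0 kb upstream of the start of Skap2 and 115 kb from the nearer end of Hoxa5. This was the highest fold of the flank in replicate 1, rank 91 of 4289, and the second in replicate 2, rank 334 of 2832. No peak had its summit or any base inside Halr1.

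The strongest site within Skap2 lay 36.0 kb downstream of the start of that gene. Its peak covered 51975815 to 51976850 in replicate 1 and 51975807 to 51976856 in replicate 2, with lengths of 1036 and 1050 bp. Of the 4 shared flank sites, this 1 had a replicate 1 peak over 1000 bp, and 19.5% of all shared sites in the series did. Enrichment was 10.5-fold in replicate 1, with a −log10 q of 103, and 7.06-fold in replicate 2, with a −log10 q of 37.9. It ranked 231 of 4289 and 160 of 2832 by fold. It was the highest fold of the flank in replicate 2 and the second in replicate 1, so the order of the site before Halr1 and this one differed between the lists. In both lists the peak was lopsided, with its summit 73.6% and 73.8% of the way from the left edge. Summits of the other flank peaks lay 57.0% to 64.5% of the way in replicate 1 and 38.4% to 69.3% in replicate 2. The 2 summits of this site lay 5 bp apart.

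A smaller peak followed this one on the side of the Skap2 start. It covered 51977154 to 51977523 in replicate 1, with 5.06-fold enrichment and a −log10 q of 21.3. In replicate 2 it covered 51977193 to 51977473, with 3.39-fold enrichment and a −log10 q of 7.90, the lowest of the flank in each list. Only 303 bp in replicate 1 and 336 bp in replicate 2 separated the edges of these neighbours, and their summits were 793 and 719 bp apart. Such close neighbours were uncommon, since 1.33% of all replicate 1 peaks and 2.33% of all replicate 2 peaks had another summit of their list within 1000 bp. The summits of the smaller peak lay 69 bp apart between replicates, the widest of the 4 shared sites. Chromatin was sheared to between 200 and 500 bp, a range that takes in the gaps of 303 and 336 bp between the edges but not the distances between the summits of the neighbours. Whether the neighbours are separate binding sites was not tested.

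The next site lay 18.5 kb downstream of the Skap2 start, closest to it of all. Replicate 1 gave 5.31-fold enrichment over 51993716 to 51994231 with a −log10 q of 28.0. Replicate 2 gave 3.71-fold over 51993845 to 51994154 with a −log10 q of 11.1. The replicate 2 peak of 310 bp lay wholly within the replicate 1 peak of 516 bp, and the summits were 10 bp apart.

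One site was found in replicate 1 alone. It covered 51894770 to 51895188, 118 kb downstream of the Skap2 start and 35.8 kb from the far end of the gene, with 6.24-fold enrichment and a −log10 q of 33.6. This fold was above those of 2 flank peaks that had a partner, and 83.7% of the replicate 1 list had a lower one. No replicate 2 peak overlapped it, and the nearest began 80.6 kb away. The lists hold no signal below the authors' threshold and no read counts, so the depth is unknown and a weaker signal in replicate 2 could not be looked for.

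**Figure D1:**
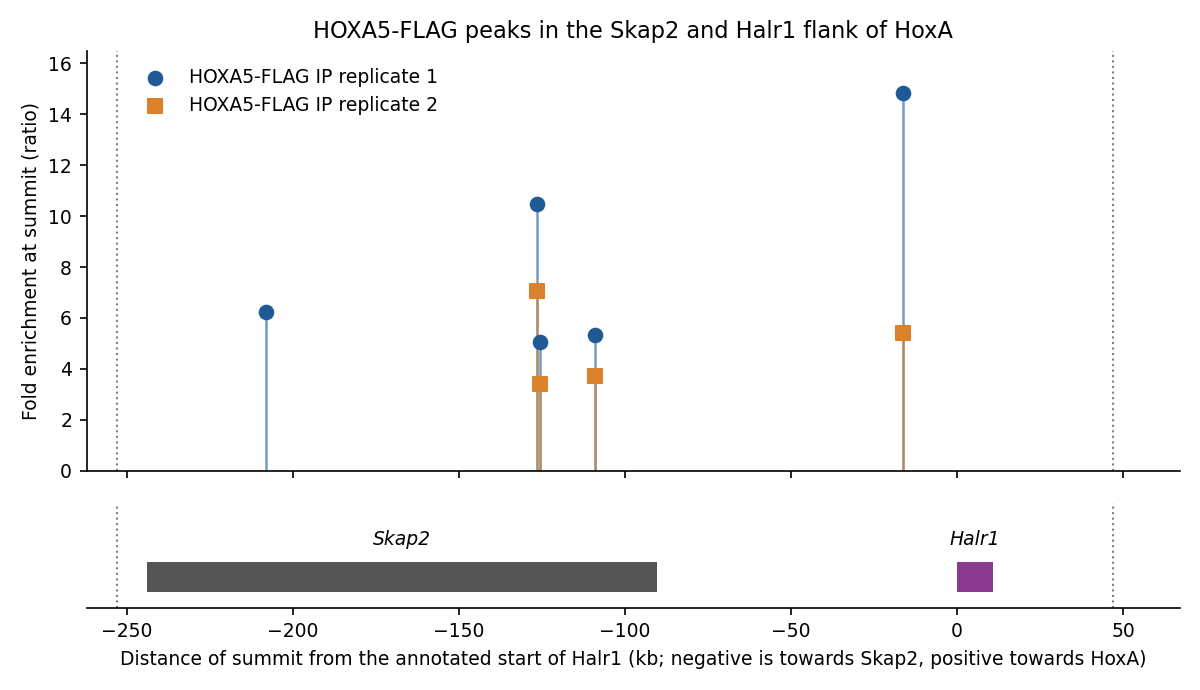
Fold enrichment at the summit of each flank peak (y axis, ratio) against its distance from the annotated start of Halr1 (x axis, kb), with circles for replicate 1, squares for replicate 2, bars for the gene spans and dotted lines for the edges of the window. The sites lie inside Skap2 except 1, which stands 16.4 kb before Halr1 and reaches 14.8-fold in replicate 1 and 5.40-fold in replicate 2.

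Of the flank peaks, 4 of 5 in replicate 1 had a partner in replicate 2, where 51.2% of that whole list did. All 4 replicate 2 peaks had a partner, where 77.6% of that whole list did. The summits of all 4 shared sites were at most 69 bp apart, and 73.2% of the 2175 shared sites of the series had summits within 100 bp of each other. The overlap covered between 60.1% and 100% of the replicate 1 peak and between 93.3% and 100% of the replicate 2 peak. Inside Skap2 lay 4 of the 5 sites and 3 of the 4 shared ones. Holding at least 3 shared sites was rare for protein-coding genes (0.142% of 21757), and it was so for 2.12% of the 1412 that are at least as long as Skap2. As the window was chosen for its peaks, nothing is read from these shares.

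The flank peaks were at or above the middle of their lists by fold. In replicate 1 their median fold was 6.24 (range 5.06 to 14.8) against 3.87 over the whole list, and in replicate 2 it was 4.55 (3.39 to 7.06) against 3.36. The share of the list with a lower fold ran from 73.0% to 97.9% in replicate 1 and from 51.0% to 94.3% in replicate 2. By −log10 q the share ran from 69.4% to 98.0% and from 41.3% to 91.5%, so the smaller of the close neighbours was below the middle of the replicate 2 list by that measure. Median length was 516 bp in replicate 1 and 514.5 bp in replicate 2, against 414 and 436.5 bp over the lists. Fold and −log10 q ranked the flank peaks in the same order within each list.

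**Figure D2:**
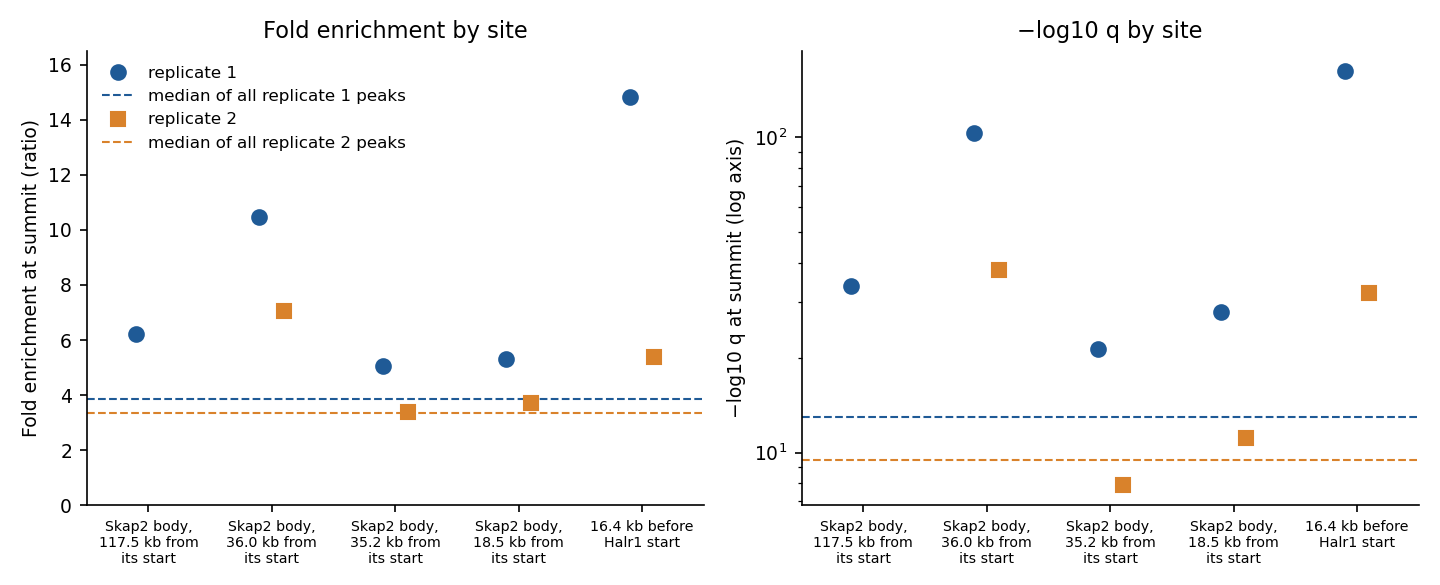
Fold enrichment (left, ratio) and −log10 q (right, log axis) of the 5 flank sites, ordered from the far end of Skap2 to Halr1, with circles for replicate 1, squares for replicate 2 and dashed lines for the median of each whole list. Replicate 2 has no point at the first site, and its lowest −log10 q, 7.90, is the one value under the median of its list.

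**Figure D3:**
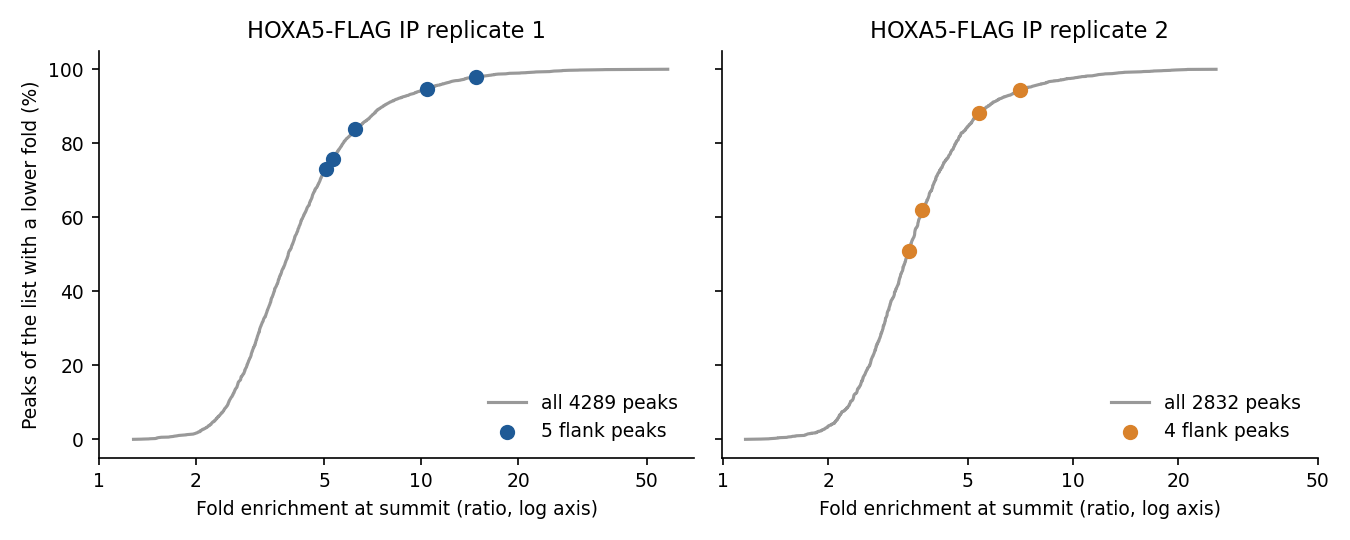
Share of each list with a lower fold (y axis, %) against fold enrichment (x axis, ratio, log axis), with a grey line for all peaks and filled circles for the flank peaks of replicate 1 (left) and replicate 2 (right). The flank peaks run from 73.0% to 97.9% of the replicate 1 list and from 51.0% to 94.3% of the replicate 2 list.

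Beyond the window the nearest peaks were far away on one side and close on the other. Away from the cluster, past Skap2, the next replicate 1 peak lay 959 kb outside the window (3.59-fold) and had a replicate 2 partner. The next replicate 2 peak, 775 kb outside the window (2.95-fold), had no replicate 1 partner. Towards the cluster the next peak lay 8.42 kb outside in replicate 1 (7.03-fold) and 8.40 kb outside in replicate 2 (3.47-fold). This was a shared site inside the noncoding gene Hotairm2. Between the site before Halr1 and that one, 71.9 kb in replicate 1 and 71.8 kb in replicate 2 separated the summits. The 168 kb from the edge of the window to the outer end of Evx1, with the HoxA genes, held 7 and 6 peaks that formed 6 shared sites. The leading pair of flank sites, at 14.8- and 10.5-fold in replicate 1 and 5.40- and 7.06-fold in replicate 2, had higher folds than any peak there, where the highest reached 7.92 and 5.29.

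The flank was set beside 300 kb windows placed by annotation at the ends of Hox clusters. Past Evx1, at the other end of HoxA, 1 replicate 1 peak of 3.04-fold and no replicate 2 peak was found. The 300 kb beyond Hoxb1 hold most of Skap1, the paralogue of Skap2 that encodes a T cell adaptor, and there 5 replicate 1 and 2 replicate 2 peaks formed 2 shared sites, both inside Skap1. The highest folds on the Skap1 side were 5.68 in replicate 1, at a peak inside Skap1 with no partner, and 4.03 in replicate 2. Both were below the 14.8 and 7.06 of the Skap2 side. Beyond Hoxd1 each list had 2 peaks and 1 site was shared, and beyond Hoxc4, among 12 annotated genes, there were 2 and 1 peaks with 1 shared site. Of 8872 consecutive 300 kb tiles of the assembled chromosomes, 0.462% held at least 5 replicate 1 peaks, 0.327% at least 4 replicate 2 peaks and 0.203% at least 4 shared sites. These shares only place the counts, and the differences between the windows were not tested.

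**Figure D4:**
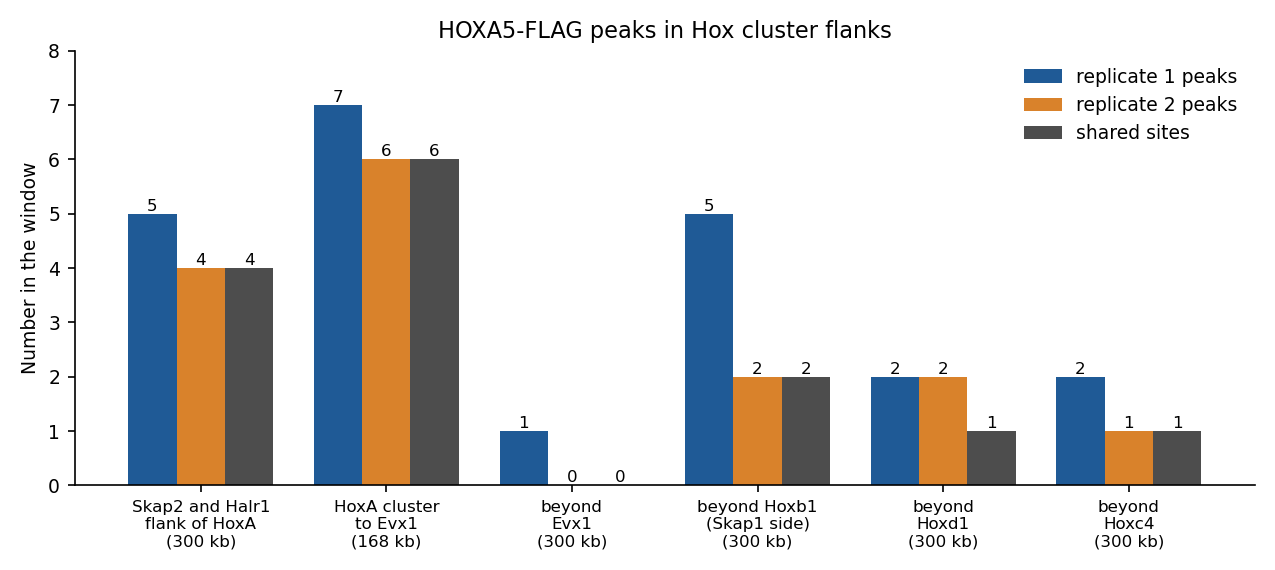
Number of replicate 1 peaks, replicate 2 peaks and shared sites (y axis) in the Skap2 and Halr1 flank, the HoxA cluster and the windows beyond the ends of the Hox clusters (x axis, window length in kb), with the number above each bar. The flank has 5, 4 and 4, against 5, 2 and 2 on the Skap1 side of HoxB.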

How the data were processed

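The authors deposited 1 peak list for each of the 2 immunoprecipitates, so replicates were not pooled. Per the submitters' processing notes the tools included Trim Galore, Bowtie2 2.5.2, SAMtools 1.18, bedtools 2.31.0 and MACS3 3.0.1, with mm10. Settings, the peak caller's control and filters are not stated in these sources. The deposited lists give a fold enrichment (a ratio), a −log10 p and a −log10 q at each summit, and the deposited score was not used. They hold no counts, so depth is unknown.

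Peaks overlapping by at least 1 bp between the lists were called shared, and chains were merged and placed at the replicate 1 summit. The overlap step was tested on simulated data (Python 3.11.15, pandas 2.3.3, NumPy 2.4.6). Genes, strands of the starts and promoter sequences came from RefSeq tables of GRCm38.p6, the build of the lists, and both gene names matched. Coordinates are 1-based. The 300 kb tiles ran from 3000000 to the last gene of each chromosome. The genes and motifs named are the members, the genes touching the window, neighbours and the end genes of the Hox clusters, of which some are not reported here. The window, members, motifs and comparisons were chosen with earlier results of these data known.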

Additional observations from a re-analysis of the deposited data

How the results depend on the processing

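Under the alternatives, 18 values were unchanged or, for counts, stayed within 1.5 times of those reported. The settings were a −log10 q of at least 5, peaks of at most 1000 bp, 50% reciprocal overlap, summits within 100 bp, the window narrowed by 50000 bp at both ends, any base of a peak inside a gene, shared peaks alone (replicate 2) and each replicate left out. Widening the window by 50000 bp at both ends gave 11 replicate 1 peaks, 10 replicate 2 peaks and 10 shared sites, since it takes in part of the HoxA cluster. With shared peaks alone the median replicate 1 fold was 7.89 against 6.24. Limiting peaks to 1000 bp left 3 shared sites, without the strongest site in Skap2. Narrowing the window left 4 replicate 1 peaks, without the site found in replicate 1 alone. Leaving out each replicate in turn gave 4 to 5 sites, which restates the count of the other list. Several other settings could not change the values either. Every flank peak had a −log10 q of at least 7.90, and shared summits were at most 69 bp apart. Their overlap covered at least 60.1% of each peak, and every replicate 2 peak had a partner. No paired analysis was possible because no values of the inputs, which carry the same replicate numbers, were analysed here, and the results come from no test. With peak lists alone, a weak signal cannot be told from none.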
